A study of Mus musculus with 30 samples.

Results

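The 10 circadian clock genes Per1, Per2, Cry1, Cry2, Nr1d1, Nr1d2, Bhlhe40, Bhlhe41, Clock and Nfil3, were followed in mouse macrophages given a β2 adrenergic agonist and a bacterial product. They were chosen by symbol, with the transcript line of highest mean kept for each, and all 10 were found among 24761 gene symbols. The cells were macrophages grown with M-CSF, the growth factor of this lineage, from marrow of C57Bl/6 mice labelled WT. They received 2 h of either the vehicle DMSO or 1 µM metaproterenol hemisulfate (MPH), an agonist of the β2 adrenergic receptor. They were then collected without LPS (0 h) or after 1 or 2 h of LPS, which is labelled as 100 ng/µL. The design text also names 6 h, which was not analysed here. Libraries given DMSO carry 7 names, D3 to D6, r1, r2 and UKD, while M2, M3 and M4 mark those given MPH; each name has 1 library per time, 30 libraries in all. All groups share strain, genotype and the 2 h pretreatment, so every group at 0 h had been handled with vehicle or drug. The labels do not say which names are separate animals or cultures, so p-values measure the spread between these libraries, which may be partly technical.

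The mammalian clock is a loop of transcription and repression that runs in most cells, macrophages included. CLOCK and ARNTL activate genes through E-boxes, among them the Period and Cryptochrome genes, whose proteins return to the nucleus and repress that activity. In side loops, REV-ERBα and REV-ERBβ (Nr1d1, Nr1d2) repress Arntl, DEC1 and DEC2 (Bhlhe40, Bhlhe41) compete at E-boxes, and NFIL3 represses genes through D-boxes. β2 adrenergic receptors raise cyclic AMP, which activates the factor CREB at cyclic AMP response elements (CREs), and Per1 is a well known gene of that class.

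The windows around transcription starts are shown for Per1 and Nfil3, the genes with the largest differences between MPH and DMSO without LPS, and for Bhlhe41, which fell after LPS. They come from RefSeq on GRCm38.p6, whereas the expression files use mm9, and run from 250 bases before to 50 bases after a start. Per1 has 2 windows. Capitals mark the CRE core TGACG and the E-box CACGTG on either strand, so that CGTCA is the core read on the other strand.
Per1, chr11:69098699-69098998, plus strand: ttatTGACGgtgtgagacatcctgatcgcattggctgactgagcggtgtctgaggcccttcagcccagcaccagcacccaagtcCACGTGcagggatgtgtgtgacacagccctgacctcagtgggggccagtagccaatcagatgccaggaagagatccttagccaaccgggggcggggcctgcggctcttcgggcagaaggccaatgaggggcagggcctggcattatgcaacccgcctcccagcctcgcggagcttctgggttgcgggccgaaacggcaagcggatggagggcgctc
Per1, chr11:69099902-69100201, plus strand: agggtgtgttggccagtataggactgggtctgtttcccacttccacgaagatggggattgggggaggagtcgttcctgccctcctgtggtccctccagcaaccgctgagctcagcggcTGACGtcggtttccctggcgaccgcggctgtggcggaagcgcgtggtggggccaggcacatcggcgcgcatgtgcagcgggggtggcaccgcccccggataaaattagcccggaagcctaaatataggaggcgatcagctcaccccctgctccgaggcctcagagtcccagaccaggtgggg
Nfil3, chr13:52980990-52981289, minus strand: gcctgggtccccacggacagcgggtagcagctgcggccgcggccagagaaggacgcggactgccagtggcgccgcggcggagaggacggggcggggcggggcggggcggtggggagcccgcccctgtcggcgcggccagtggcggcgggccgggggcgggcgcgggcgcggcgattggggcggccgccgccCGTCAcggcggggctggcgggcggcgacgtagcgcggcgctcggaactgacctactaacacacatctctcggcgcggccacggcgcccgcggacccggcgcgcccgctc
Bhlhe41, chr6:145865371-145865670, minus strand: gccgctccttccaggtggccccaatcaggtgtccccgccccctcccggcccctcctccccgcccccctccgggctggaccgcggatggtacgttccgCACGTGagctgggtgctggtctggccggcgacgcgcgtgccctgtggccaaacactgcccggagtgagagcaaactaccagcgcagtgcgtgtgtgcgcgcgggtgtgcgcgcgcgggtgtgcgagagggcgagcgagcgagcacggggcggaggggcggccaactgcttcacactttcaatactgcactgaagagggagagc

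The first Per1 window holds a CRE core 246 bases and an E-box 166 bases before the start, and the second holds a CRE core 132 bases before it. In the Nfil3 window a CRE core lies 59 bases before the start, on the other strand. In the Bhlhe41 window an E-box lies 153 bases before it. Windows were held for 8 of the 10 genes (11 windows); Per2 and Bhlhe40 were not among them. The CRE core was in 5 of these 11 windows, from 4 genes (Per1, Cry1, Cry2 and Nfil3), and in 20.8% of all 32851 windows. The full CRE TGACGTCA, which contains the core, was in none of the 11 windows and in 1.79% of all. The E-box was in 3 of the 11 windows (Per1, Cry1 and Bhlhe41) and in 7.15% of all. The D-box forms TTATGTAA and TTACGTAA were in none of the 11 windows and in 0.938% and 0.119% of all. The nuclear receptor core AGGTCA, not marked above, was in 4 of the 11 windows (Per1, Nr1d2, Clock and Nfil3) and in 16.3% of all. Both strands were searched for each motif, and a match of letters is a description, not a binding site.

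Values are RPKM, reads per kilobase of transcript scaled to library depth, so levels can be compared between genes. Approximate depth ran from 5.38 to 92.1 M reads (M, mega, median 41.3), with 7 libraries under 20 M. The shallowest were the 1 h DMSO libraries of D6 (5.38 M), UKD (8.49 M) and D4 (9.71 M). Of these, D6 and D4 entered the comparison with MPH at 1 h, and the effect of depth on that comparison was not tested. All 8 macrophage markers were present, with a summed level of 3984 to 7198 RPKM. Neutrophil and granulocyte precursor markers summed to 9.37 to 51.8 RPKM in DMSO and 48.4 to 56.8 RPKM in MPH libraries at 0 h, and their part in the results was not tested. Marker lists of dendritic, B, T and NK, stromal, and erythroid and mast cells reached at most 2.48 RPKM in sum. Libraries of 1 name deviated together from their group means across times (30 pairs, r over genes 0.63 to 0.92). In bulk RNA a change per cell and a change in the share of cells cannot be told apart.

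Without LPS or MPH the DEC repressors were the most abundant of the 10. Bhlhe40 stood at 20.6 ± 9.43 RPKM (SD, n = 7, as for all levels in this paragraph) and Bhlhe41 at 14.0 ± 3.60 RPKM. The next level was formed by Nr1d2 at 3.72 ± 0.881 RPKM, Cry1 at 3.04 ± 0.526 RPKM, the activator gene Clock at 3.004 ± 0.569 RPKM and Per1 at 2.44 ± 0.600 RPKM. Nfil3 followed at 1.75 ± 0.409 RPKM, Cry2 at 1.61 ± 0.357 RPKM and Nr1d1 at 1.08 ± 0.531 RPKM. Per2 was lowest at 0.378 ± 0.235 RPKM. Of neighbours in this order only Bhlhe41 and Nr1d2 had ranges that did not overlap (9.24 to 19.3 against 2.70 to 4.92 RPKM); all other neighbours overlapped. Per1 exceeded Per2 in all 30 libraries, Cry1 exceeded Cry2 and Nr1d2 exceeded Nr1d1 likewise, at 0 h in DMSO by a median of 7.50, 2.00 and 4.05 times. Per2 never reached 1 RPKM (0.0285 to 0.893 RPKM, about 3.0 to 294 reads). It therefore failed the filter, which asks for 1 RPKM or more in 3 libraries or more, and 9 of the 10 genes were tested.

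**Figure D1:**
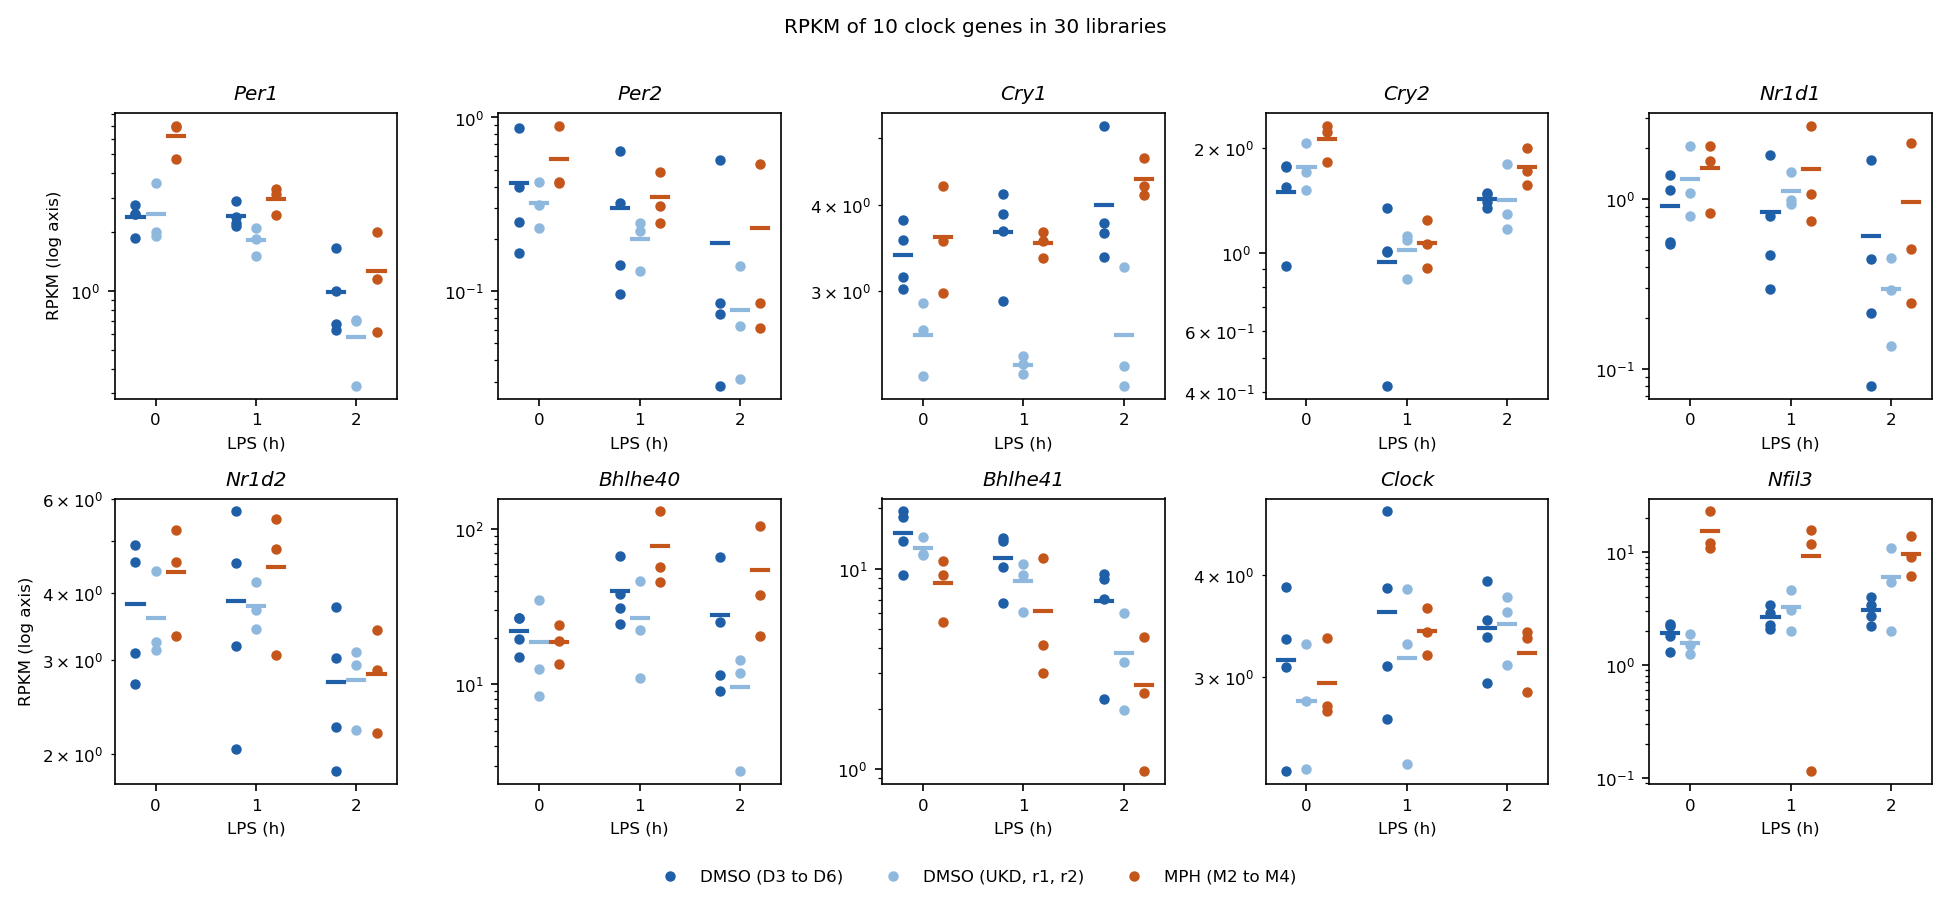
RPKM (log axis, own scale per gene) of the 10 genes against hours of LPS, 1 point per library and a bar at the mean of each set of names. Per1 and Nfil3 at 0 h show the 3 MPH libraries (4.73 to 6.99 and 10.8 to 22.9 RPKM) above all 7 DMSO libraries, and a lone Nfil3 point at 0.114 RPKM is the M4 library at 1 h.

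The first comparison asked what MPH changed before LPS and at each time after it, using 3 MPH names against D3 to D6. These DMSO names were taken because they share a naming scheme with M2 to M4. The labels do not say that they are matched controls. Per1, a repressor of the core loop, was raised by MPH before LPS. Without LPS it was at 6.99, 4.73 and 6.92 RPKM in M2, M3 and M4 and at 2.49, 1.87, 2.75 and 2.48 RPKM in D3, D4, D5 and D6. The groups did not overlap, and the highest of the other DMSO names, UKD at 3.56 RPKM, also lay below the lowest MPH library. The means were 6.21 ± 1.28 RPKM (SD, n = 3) and 2.40 ± 0.374 RPKM (SD, n = 4). On the scale log2(RPKM + 0.5), on which all tests were made and which understates changes of low genes, the difference was 1.20 (SE 0.25, adjusted p = 0.0243). Per1 was the only one of the 9 tested genes that passed at 0 h, where 0.674% of 10239 genes were called higher and 0.195% lower. The call was close to the threshold. It was lost with a pseudocount of 0.1 (adjusted p = 0.0581), with no filter (0.0635) and without D4, D5, D6, M2 or M4 (0.116, 0.0939, 0.0974, 0.0735 and 0.140), while the difference stayed between 1.08 and 1.37 over all alternatives.

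After LPS the Per1 levels of the groups came together. At 1 h they were 2.44, 3.32 and 3.13 RPKM with MPH and 2.15, 2.88, 2.38 and 2.24 RPKM with DMSO, and at 2 h 2.01, 0.619 and 1.16 RPKM with MPH and 1.65, 0.634, 1.00 and 0.680 RPKM with DMSO. The groups overlapped at both times. The differences were 0.25 (SE 0.25, adjusted p = 1.00) at 1 h and 0.21 (SE 0.25, adjusted p = 1.00) at 2 h.

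Nfil3, which encodes the D-box repressor E4BP4, showed the largest difference of the 10 genes at 0 h. It was at 22.9, 12.0 and 10.8 RPKM in M2, M3 and M4 and at 2.19, 1.31, 1.78 and 2.29 RPKM in D3 to D6. All 3 MPH libraries lay above all 7 DMSO libraries. The log2 difference was 2.66 (SE 0.72, adjusted p = 0.117), which did not pass in the joint fit of the 3 times. That fit shares its spread with a single discordant value: at 1 h Nfil3 was at 15.7 and 11.8 RPKM in M2 and M3 but at 0.114 RPKM, about 10.2 reads, in the library labelled M4. The same name stood at 10.8 RPKM at 0 h and 8.97 RPKM at 2 h. Among 8096 genes with at least 1 RPKM in the other 29 libraries, Nfil3 in this library was the only value at least 10 times below the next lowest (11.0 times).

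Without the 1 h library of M4 the Nfil3 differences were 2.66 (SE 0.28, adjusted p = 3.41e-05) at 0 h, 2.18 (SE 0.32, adjusted p = 0.00182) at 1 h and 1.46 (SE 0.28, adjusted p = 0.0102) at 2 h. In that fit 1.13%, 0.88% and 1.19% of genes were called higher at 0, 1 and 2 h. With it, the differences were 0.67 (SE 0.72, adjusted p = 1.00) at 1 h and 1.46 (SE 0.72, adjusted p = 0.591) at 2 h. Leaving out all libraries of M4, which removes the same value, gave adjusted p = 0.000223, 0.00299 and 0.0366 at 0, 1 and 2 h (limma). The M4 library at 1 h was singled out by its Nfil3 value. The smaller SE and the adjusted p of both fits without it follow from that choice and are not separate support. A fit of the 0 h libraries alone called Nfil3 at 0 h too (limma, adjusted p = 0.00681). So did all 7 DMSO names with the name series as covariate (2.84, SE 0.61, adjusted p = 0.00762). Neither setting called Nfil3 at 1 h or 2 h, although a fit of the 2 h libraries alone does not hold the discordant value. At 2 h all 7 DMSO names gave 1.27 (SE 0.61, adjusted p = 0.327). At 2 h Nfil3 was at 6.11, 14.0 and 8.97 RPKM with MPH and 4.01, 2.23, 2.71 and 3.37 RPKM in D3 to D6. Those groups did not overlap, but r1, a DMSO name outside that comparison, was at 10.8 RPKM.

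Cry2, a partner of the Period proteins in repression, had MPH libraries above D3 to D6 at 0 h and 2 h without passing the test. At 0 h it was at 2.31, 1.82 and 2.22 RPKM with MPH and 1.76, 0.916, 1.77 and 1.55 RPKM with DMSO, while UKD reached 2.07 RPKM. The difference was 0.41 (SE 0.20, adjusted p = 0.797), and 0.23 (SE 0.20, adjusted p = 0.983) at 2 h. At 2 h UKD was at 1.79 RPKM, above M2 at 1.57 and M4 at 1.71 RPKM. Against D3 to D6, groups without overlap were thus found for 3 of 9 genes at 0 h (Per1, Cry2, Nfil3), 0 of 9 at 1 h and 2 of 9 at 2 h (Cry2, Nfil3), all with MPH above. Over all genes tested, in either direction, the shares were 7.54%, 1.48% and 9.5%.

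The paralogues Bhlhe40 and Bhlhe41 had differences of opposite sign after LPS, and neither passed in this fit, which pairs no names. At 2 h Bhlhe41 was at 2.39, 0.977 and 4.54 RPKM with MPH and 8.85, 2.25, 9.34 and 7.04 RPKM with DMSO. Only D4 among these DMSO libraries lay within the MPH range, and the difference was -1.25 (SE 0.49, unadjusted p = 0.0210, adjusted p = 0.374, limma). Of the DMSO names outside that comparison, r1 at 1.98 and r2 at 3.40 RPKM also lay within the MPH range, and UKD at 6.04 RPKM above it. Bhlhe40 at 2 h was at 105, 20.6 and 37.7 RPKM with MPH and 66.1, 9.11, 25.1 and 11.4 RPKM with DMSO, a difference of 1.07 (SE 0.60, adjusted p = 0.683). The groups overlapped. As a description of single libraries, the ratio of Bhlhe40 to Bhlhe41 at 2 h was 8.29, 21.1 and 44.0 in the MPH libraries from lowest to highest, and ran from 1.40 to 7.47 (median 2.68) in the 7 DMSO libraries. At 1 h it ran from 4.05 to 31.2 with MPH and from 1.82 to 4.85 with DMSO, and at 0 h from 2.07 to 2.49 and from 0.722 to 2.45, so the ranges overlapped at both of these times.

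None of the 9 genes was called for MPH against DMSO at 1 h, when 0% of genes were called in either direction, or at 2 h, when 0.479% were called higher and 0.391% lower. At 1 h 0 and at 2 h 1 of the 9 had an unadjusted p under 0.05. Clock, the activator, and Cry1 had differences between -0.09 and 0.13 at all 3 times, with SE 0.17 and 0.15. Nr1d1 and Nr1d2, the REV-ERB repressors, had differences of 0.38 to 0.58 (SE 0.50) and 0.07 to 0.23 (SE 0.29). The median difference over the 9 genes was 0.19, 0.23 and 0.21 at 0, 1 and 2 h, beside -0.04, 0.00 and -0.02 over all genes.

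**Figure D2:**
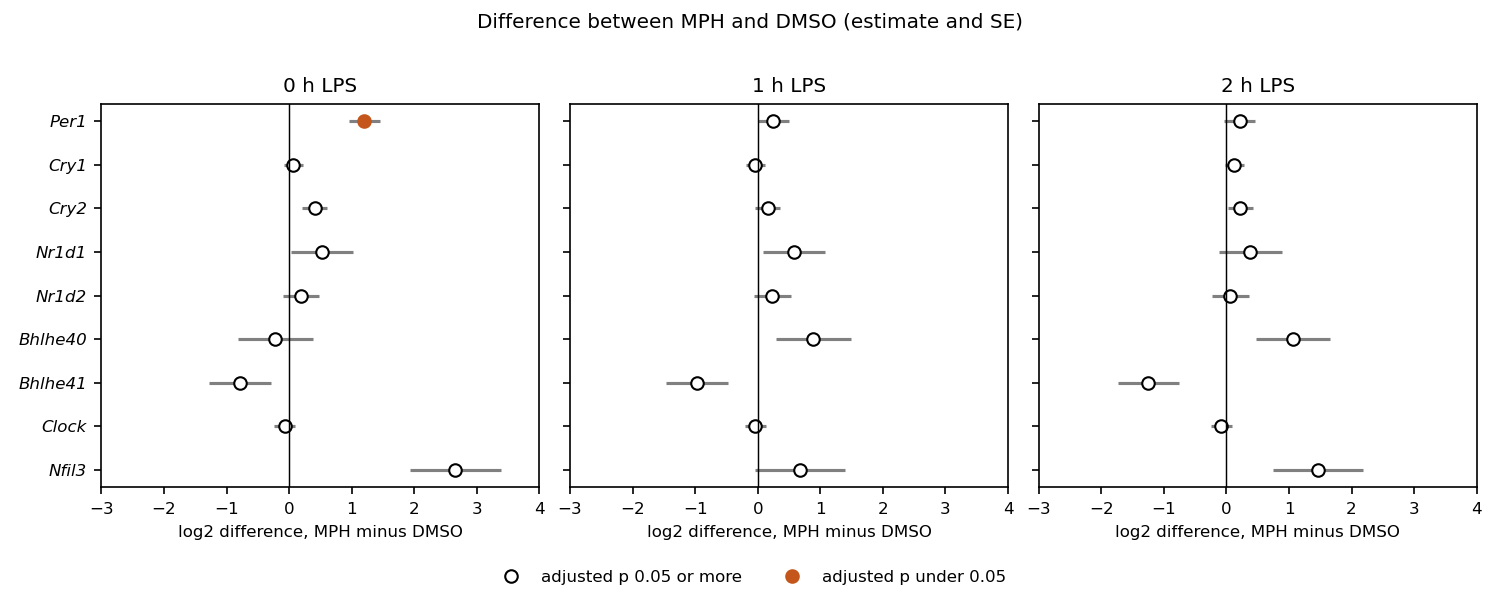
Difference between MPH and DMSO (log2, point) with its SE (bar) for the 9 tested genes at 0, 1 and 2 h of LPS. The filled point, Per1 at 0 h (1.20), is the only one past the threshold; Nfil3 at 0 h (2.66) is larger with a wider bar.

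The second comparison asked how LPS alone changed these genes, over the 7 DMSO names. After 2 h, Per1 fell in all 7. Its levels ran from 1.87 to 3.56 RPKM (median 2.48) at 0 h, from 1.51 to 2.88 RPKM (median 2.15) at 1 h and from 0.329 to 1.65 RPKM (median 0.700) at 2 h. The 2 h range lay below the 0 h range, and within a name the 2 h level was 0.171 to 0.665 of that at 0 h. The difference was -1.19 (SE 0.15, adjusted p = 2.37e-06) at 2 h and -0.14 (SE 0.15, adjusted p = 0.558) at 1 h.

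Bhlhe41 fell likewise in all 7 names. It ran from 9.24 to 19.3 RPKM (median 13.7) at 0 h, 6.06 to 14.3 RPKM (median 10.2) at 1 h and 1.98 to 9.34 RPKM (median 6.04) at 2 h. The ranges touched only through D5 at 2 h and D4 at 0 h. Within a name the 2 h level was 0.169 to 0.646 of that at 0 h, and the difference was -1.41 (SE 0.26, adjusted p = 0.000161).

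Its paralogue Bhlhe40 peaked at 1 h within each name. It ran from 8.43 to 35.2 RPKM (median 19.5) at 0 h, 11.0 to 66.8 RPKM (median 31.1) at 1 h and 2.76 to 66.1 RPKM (median 11.8) at 2 h, so the ranges overlapped at all times. Within a name, however, the 1 h level was above that at 0 h in 7 of 7 (1.31 to 2.50 times) and the 2 h level below it in 6 of 7, the exception being D3. The difference was 0.67 (SE 0.38, adjusted p = 0.223) at 1 h. From 1 h to 2 h it fell by 1.11 (SE 0.38, adjusted p = 0.0418), a call lost without D4, D5, D6, UKD, r1 or r2 (adjusted p = 0.0651, 0.0734, 0.103, 0.120, 0.0942 and 0.0605), with no filter (0.0872), without the covariate for name series (0.143), in D3 to D6 only (0.474) and with median-of-ratios scaling (0.0725).

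Nfil3 rose under LPS alone. It ran from 1.26 to 2.29 RPKM (median 1.78) at 0 h, 2.01 to 4.61 RPKM (median 2.89) at 1 h and 1.98 to 10.8 RPKM (median 3.37) at 2 h. Within each of the 7 names both later levels were above that at 0 h, by 1.26 to 2.45 times at 1 h and 1.31 to 5.73 times at 2 h. The difference was 0.58 (SE 0.22, adjusted p = 0.0687) at 1 h and 0.94 (SE 0.22, adjusted p = 0.00126) at 2 h. In D3 to D6 alone it was 0.58 at 2 h (adjusted p = 0.0569).

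Cry2 dipped at 1 h. It ran from 0.916 to 2.07 RPKM (median 1.71) at 0 h, 0.418 to 1.34 RPKM (median 1.02) at 1 h and 1.17 to 1.79 RPKM (median 1.40) at 2 h. The 1 h level was below the 0 h level in 6 of 7 names, D4 being the exception, although the ranges overlapped. The 1 h difference was -0.52 (SE 0.13, adjusted p = 0.00835). From 1 h to 2 h Cry2 rose by 0.40 (SE 0.13, adjusted p = 0.0351), a call lost without D5, D6, UKD, r1 or r2 (adjusted p = 0.0793, 0.102, 0.0978, 0.0778 and 0.0605), with no filter (0.0923) and without the covariate (0.0581). The lowest value, 0.418 RPKM in D6 at 1 h, rested on about 8.9 reads in the shallowest library.

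Of the REV-ERB genes, Nr1d1 fell at 2 h. It ran from 0.549 to 2.06 RPKM (median 1.09) at 0 h and 0.0803 to 1.71 RPKM (median 0.294) at 2 h, and was below its 0 h level in 6 of 7 names, not in D3. The difference was -0.78 (SE 0.27, adjusted p = 0.0212), and the call was lost without D5, UKD, r1 or r2 (adjusted p = 0.0522, 0.0776, 0.0834 and 0.0520). Nr1d2 ran from 2.70 to 4.92 RPKM (median 3.24) at 0 h and 1.85 to 3.77 RPKM (median 2.94) at 2 h, and was below its 0 h level in 7 of 7 names. Its difference of -0.38 (SE 0.18, adjusted p = 0.0704) did not pass. Per2, too low for the filter, ran from 0.166 to 0.870 RPKM (median 0.314) at 0 h and 0.0285 to 0.565 RPKM (median 0.0735) at 2 h, and was also lower within 7 of 7 names; tested with no filter, its difference was -0.46 (SE 0.17, adjusted p = 0.0608). Cry1 and Clock, at 0.11 (SE 0.10, adjusted p = 0.377) and 0.19 (SE 0.11, adjusted p = 0.163) at 2 h, did not pass.

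At 1 h, 0 of 9 genes were called higher and 1 lower, where 5.24% and 15% of 10212 genes were called. At 2 h, 1 was called higher and 3 lower, where 10.5% and 43.6% were called, so that the shares among the 9 are close to or under those of all genes. Between 1 h and 2 h, 1 was called higher (Cry2) and 3 lower (Per1 by 1.05, Bhlhe41 by 0.94 and Bhlhe40), where 6.59% and 15.4% were called. The median over the 9 genes was 0.00 at 1 h and -0.38 at 2 h, beside -0.15 and -0.25 over all genes. These all-gene medians depend on scaling. Median-of-ratios scaling moved them by 0.14 and 0.23 at 1 and 2 h, and the share of calls that were higher from 25.8% to 56.7% at 1 h, from 19.4% to 47.9% at 2 h and from 30% to 49.8% between 1 h and 2 h. Under it Cry1 (0.33, adjusted p = 0.0245) and Clock (0.41, adjusted p = 0.00572) were called higher at 2 h and Nr1d1 was not called (-0.65, adjusted p = 0.0766). None of the called genes changed sign under it. In D3 to D6 only, without the other 3 DMSO names, Per1 and Bhlhe41 were the genes called at 2 h, Per1 alone between 1 h and 2 h, and none at 1 h, where Cry2 was at -0.49 (adjusted p = 0.340).

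Since libraries of 1 name deviated together, the LPS response was also fitted with the library name as a block. At 1 h this called 4 genes: Bhlhe40 (0.67, SE 0.22, adjusted p = 0.0170) and Nfil3 (adjusted p = 0.0123) higher, Bhlhe41 (adjusted p = 0.0143) and Cry2 (adjusted p = 0.00115) lower. At 2 h it called 6, adding Nr1d2 as lower (SE 0.06, adjusted p = 4.85e-05) and Clock as higher (adjusted p = 0.0303). From 1 h to 2 h it called 6, adding Nr1d1 (adjusted p = 0.00187) and Nr1d2 (adjusted p = 0.000101) as lower. The blocked fit called 8.71% of all genes higher and 44.8% lower at 1 h, 14.8% and 62% at 2 h, and 13.8% and 35.4% between 1 h and 2 h.

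The third comparison followed the LPS response under MPH, with 3 names. Per1 fell from the raised level given above to 0.131 to 0.288 of its own 0 h level at 2 h, a difference of -1.99 (SE 0.27, adjusted p = 4.13e-05). At 1 h it was below its 0 h level in 3 of 3 names, with a difference of -0.94 (SE 0.27, adjusted p = 0.0668). Bhlhe41 was at 9.23, 5.42 and 10.9 RPKM in M2, M3 and M4 at 0 h, 4.17, 3.02 and 11.2 RPKM at 1 h and 2.39, 0.977 and 4.54 RPKM at 2 h. The 2 h values lay below all 0 h values, and the difference was -1.64 (SE 0.53, adjusted p = 0.0344). That call was lost without D5, D6, M2 or M3 (adjusted p = 0.0522, 0.0572, 0.143 and 0.142), with no filter (0.0718) and with median-of-ratios scaling (0.0985).

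Bhlhe40 under MPH was at 19.1, 13.5 and 24.0 RPKM at 0 h, 130, 57.1 and 45.5 RPKM at 1 h and 105, 20.6 and 37.7 RPKM at 2 h in M2, M3 and M4. All 1 h values lay above all 0 h values, and the 2 h level was above that at 0 h in 3 of 3 names (1.53 to 5.52 times). The differences of 1.89 at 1 h (SE 0.64, adjusted p = 0.174) and 1.22 at 2 h (SE 0.64, adjusted p = 0.195) did not pass. With the library name as a block both did (SE 0.38, adjusted p = 0.00444 and 0.0154).

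Nfil3, already high, did not rise further in a common direction: the 2 h level was 0.267, 1.17 and 0.827 of the 0 h level in M2, M3 and M4. Its differences under MPH were -1.59 at 1 h (SE 0.77, adjusted p = 0.523), a value that includes the discordant library, and -0.62 at 2 h (SE 0.77, adjusted p = 0.629). In all, 0 of 9 genes were called at 1 h, with 3 at an unadjusted p under 0.05 in limma, where 1.89% of genes were called higher and 1.18% lower. At 2 h 0 were called higher and 2 lower, where 5.97% and 14.7% were called. With the block, 3 were called at 1 h (Bhlhe40 higher, Per1 and Cry2 lower with adjusted p = 0.0215 and 0.0210) and 5 at 2 h, adding Nr1d1 (adjusted p = 0.0368) and Nr1d2 (adjusted p = 0.00104) as lower. The block called 4.66% of genes higher and 7.41% lower at 1 h, and 11.7% and 42.8% at 2 h. Scaling by median of ratios moved the share of calls that were higher from 61.6% to 74.6% at 1 h and from 28.8% to 58% at 2 h, and the all-gene median by 0.22 at 2 h.

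**Figure D3:**
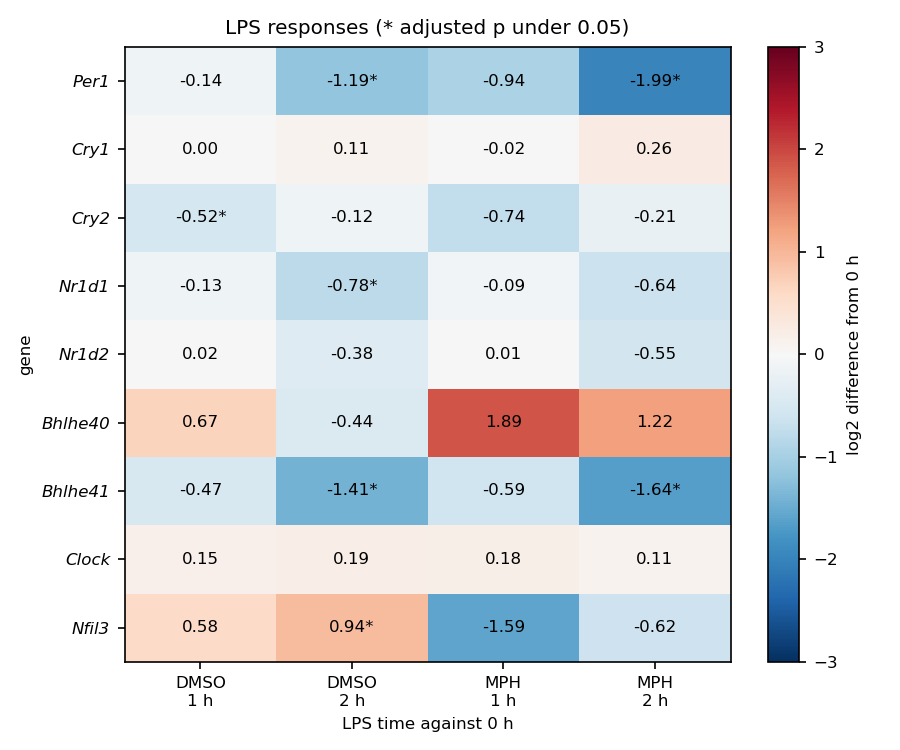
Difference from 0 h (log2, colour and printed value) of the 9 tested genes after 1 and 2 h of LPS, under DMSO (7 names) and MPH (3 names), from the fits without the block; an asterisk marks an adjusted p under 0.05. Per1 and Bhlhe41 carry an asterisk at 2 h under both treatments, and Bhlhe40 under MPH reaches 1.89 at 1 h without one.

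Whether the LPS responses differed by treatment was tested as the difference between the responses, D3 to D6 against M2 to M4. None of the 9 genes was called at 1 h or 2 h. Over all genes 0% were called in either direction at 1 h, and 0.0195% higher and 0.0879% lower at 2 h. Per1 had the smallest unadjusted p of the 9 at both times, with differences of -0.96 (SE 0.35, unadjusted p = 0.0139, adjusted p = 1) and -0.99 (SE 0.35, unadjusted p = 0.0111, adjusted p = 0.947) in limma. It was the only one of the 9 with an unadjusted p under 0.05 at either time. Bhlhe40 had differences of 1.11 and 1.29 (SE 0.84, adjusted p = 1 for both), so no difference between its responses was called. These fits hold no term that pairs a DMSO name with an MPH name, since the labels give no such pairs. Names that deviated together, as described below, can be set side by side without a test. The 2 h level of Bhlhe40 over its own 0 h level was 5.52 in M2 and 2.47 in D3, 1.53 in M3 and 0.603 in D4, and 1.57 in M4 and 0.932 in D5. That of Per1 was 0.288 in M2 and 0.665 in D3, 0.131 in M3 and 0.340 in D4, and 0.167 in M4 and 0.366 in D5. In each of these 3 sets the MPH library was higher for Bhlhe40 and lower for Per1. The level of Bhlhe41, not taken over 0 h, was lower in the MPH library of each set at 0, 1 and 2 h. At 2 h it was 2.39 RPKM in M2 and 8.85 RPKM in D3, 0.977 in M3 and 2.25 in D4, and 4.54 in M4 and 9.34 in D5. The sets were seen in the data and not given by the labels.

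**Figure D4:**
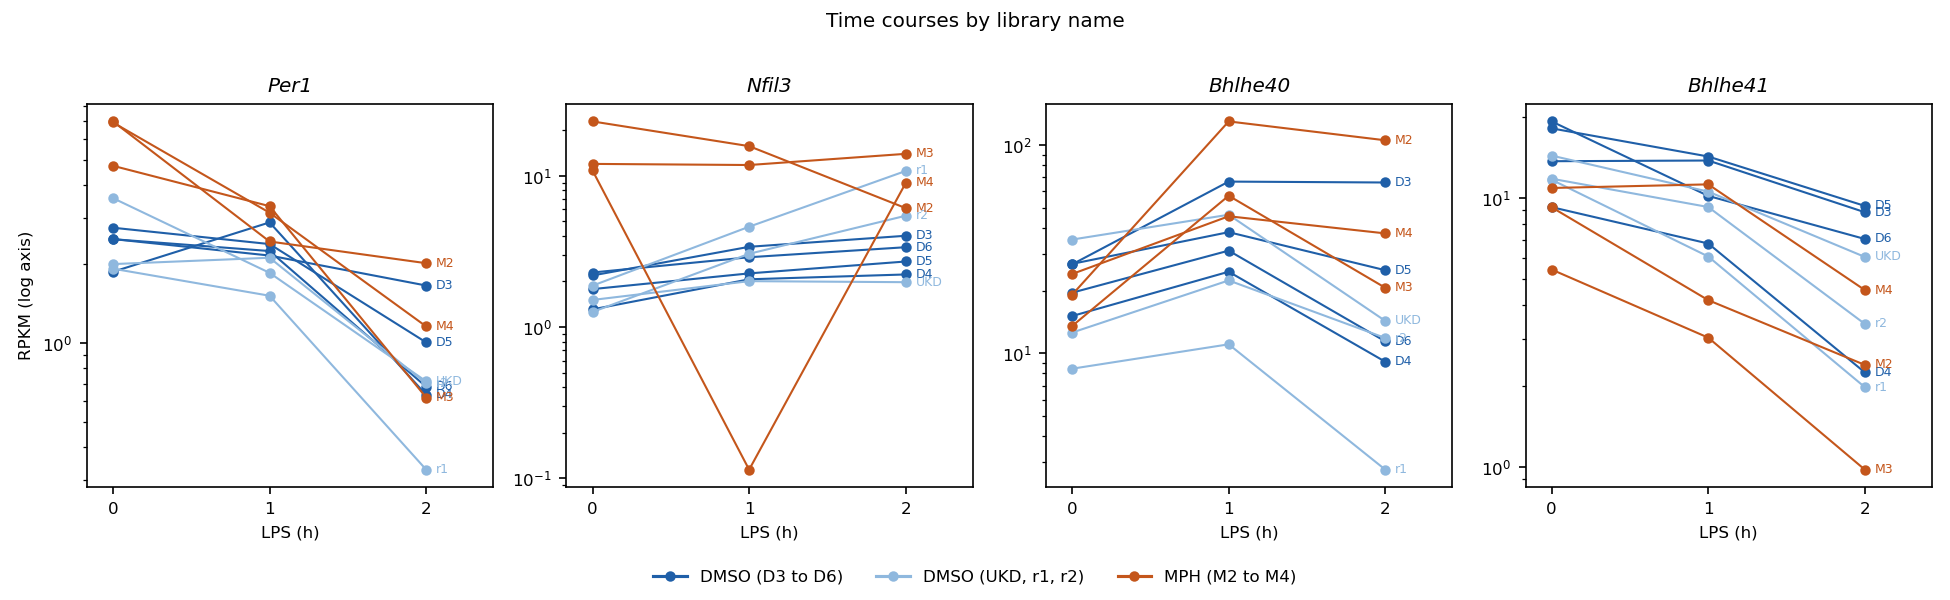
RPKM (log axis) of Per1, Nfil3, Bhlhe40 and Bhlhe41 against hours of LPS, 1 line per library name. The Per1 lines of the treatments, apart at 0 h, overlap at 2 h (0.329 to 2.01 RPKM over all names), Bhlhe40 peaks at 1 h in all 10 names, and the M4 line of Nfil3 drops to 0.114 RPKM at 1 h.

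Levels also varied by library name at a fixed treatment and time. Per2 in D3 was at 0.870, 0.643 and 0.565 RPKM at 0, 1 and 2 h, the highest of the 7 DMSO libraries each time, and in M2 at 0.893, 0.487 and 0.543 RPKM, the highest of the 3 MPH libraries each time. Nr1d1 in D3 was at 1.39, 1.81 and 1.71 RPKM, and in M2 at 2.07, 2.69 and 2.14 RPKM. At 2 h, when the other 6 DMSO libraries were at 0.0803 to 0.453 RPKM, D3 thus stood apart for Nr1d1. Bhlhe40 at 2 h was at 66.1 RPKM in D3, where the other DMSO libraries reached at most 25.1 RPKM, and at 105 RPKM in M2. D3 and M2 shared more than these genes: their deviations from group means, over 10115 genes, correlated at 0.82 to 0.84 at the 3 times. D4 with M3 (0.75 to 0.87) and D5 with M4 (0.67 to 0.86) did so too. Libraries with the same number, D3 with M3, D4 with M4 and r2 with M2, gave -0.63 to 0.27. The labels do not say what these names share.

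**Figure D5:**
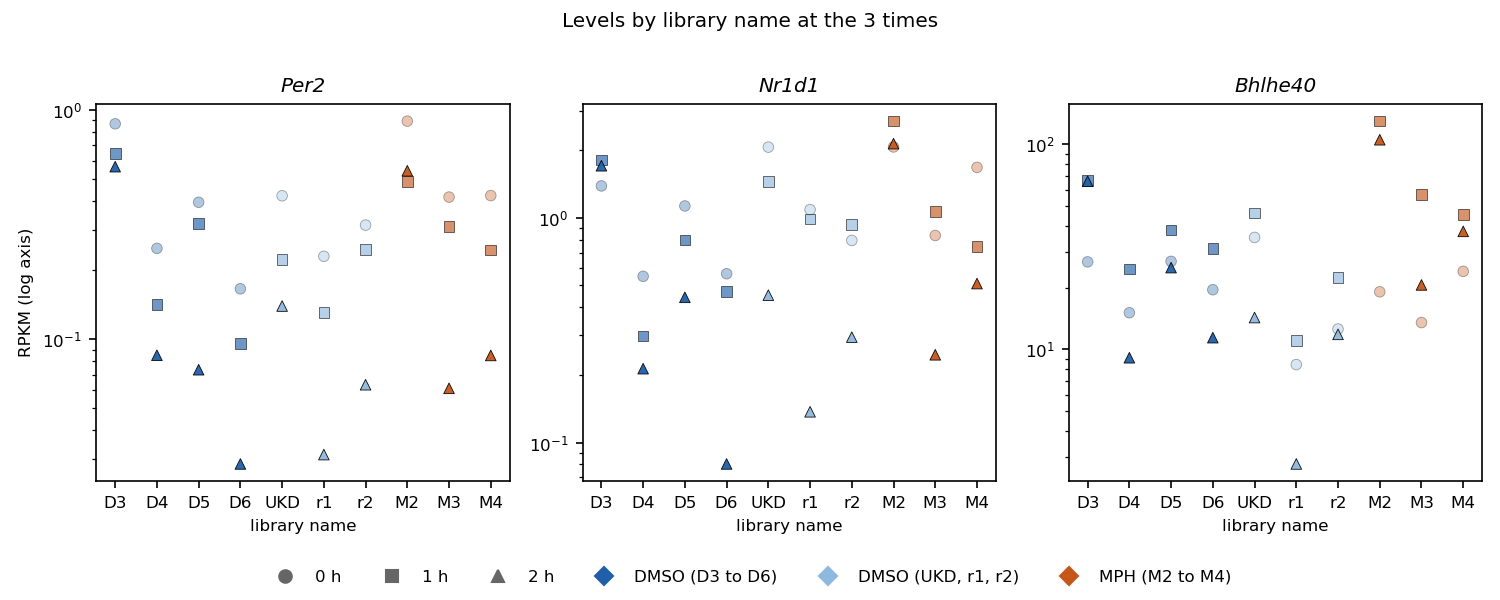
RPKM (log axis) of Per2, Nr1d1 and Bhlhe40 by library name, with circles, squares and triangles for 0, 1 and 2 h of LPS and colour for treatment. The D3 and M2 triangles lie highest for all 3 genes (Per2 0.565 and 0.543 RPKM), while those of most other names lie far below their circles for Per2 and Nr1d1.

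Other clock genes were taken from a list of 18, of which 10 passed the filter. None of these 10 was called for MPH against DMSO at 0, 1 or 2 h, with 1, 2 and 2 at an unadjusted p under 0.05 in limma. After 2 h of LPS in DMSO 7 were called lower. Arntl, which encodes the partner of CLOCK, fell from 2.75 ± 0.508 to 1.65 ± 0.328 RPKM (SD, n = 7), a difference of -0.60 (SE 0.09, adjusted p = 2.78e-05). Dbp, a D-box activator opposed by NFIL3, fell from 2.00 ± 1.25 to 0.619 ± 0.387 RPKM (-1.09, SE 0.21, adjusted p = 0.000278), and Tef, of the same family, fell by 1.07 (SE 0.20, adjusted p = 0.000243). Usp2, a deubiquitinase gene with strong rhythms in many tissues, fell by 1.55 (SE 0.12, adjusted p = 3.92e-09). Timeless fell by 1.20, Csnk1e, a kinase of the Period proteins, by 0.42, and Btrc, which targets them for degradation, by 0.40 (adjusted p = 0.00183, 0.0405 and 0.00642).

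At 1 h under DMSO Usp2 fell by 0.43 (adjusted p = 0.0155). From 1 h to 2 h Arntl, Dbp, Tef, Btrc and Usp2 fell by 0.56, 0.75, 0.60, 0.42 and 1.12. Under MPH Usp2 was called lower at 2 h (-1.28, adjusted p = 0.000778). Npas2 and Per3 were low, with medians over the 30 libraries of 0.284 and 0.386 RPKM. The median difference of the 10 genes at 2 h under DMSO was -0.51, beside -0.25 over all genes.

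The genes most like a member were taken by the root mean square difference of 6 centred group means (log2), for members called with a difference of at least 1. For Per1 these were Rassf3 (0.12), Samd8 (0.13) and Fbxo21 (0.16). For Bhlhe40 they were Gm8909 (0.17), Zfp719 (0.33) and Zfp36l1 (0.36), and for Bhlhe41 they included Ccnd1 (0.17) and Irf8 (0.17). The group means of these members themselves varied with SDs of 0.72, 0.68 and 0.78.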

How the data were processed

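Total RNA was made into TruSeq libraries, per the labels' protocols. FastQC, cutadapt, HISAT2 and SAMtools and the build mm9 are named, per the submitters' processing notes. How reads were counted, and with what strand setting, is not given in the sources used here. Deposited by the authors were RPKM values for 44401 transcript lines; no value is 0, so low values are upper limits. Lines of a member (2 for Per1 and Bhlhe41, 3 for Clock) differed by at most 1.02 times. Depth was estimated from steps between low values. The members and lists were chosen with earlier results of these data known. Tests used limma-trend (limma 3.58.1, R 4.3.3) on log2(RPKM + 0.5), for genes that reached 1 RPKM in 3 or more libraries, with Benjamini-Hochberg adjustment over all genes tested and a threshold of 0.05. A fit of 21 libraries (D3 to D6, M2 to M4; 10239 genes) gave the comparisons with MPH, and a fit of 21 DMSO libraries (10212 genes), with the name series as covariate, the LPS response under DMSO. Named genes are all members, the other clock genes past the threshold with Arntl, Npas2, Per3 and Dbp, and the 3 genes nearest to a member with a called difference of at least 1. Some genes that this rule selects are left out of the text. The M4 library at 1 h and the names D3 and M2 were singled out after their values had been seen. Names pair libraries across times (r above 0.1 in all 30 pairs), and numbers do not pair treatments. Alternatives were 2 pseudocounts, no filter, another scaling, mean of lines, libraries left out, blocks, other covariates and other DMSO sets. The tests were checked on simulated data with large planted differences, in which libraries were drawn independently. That check does not cover libraries of 1 name that deviate together.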

Additional observations from a re-analysis of the deposited data

Results flagged for a closer look

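In groups of 7 DMSO libraries, a single library stood far from the rest in 6 of 30 groups tested. The measure was its gap to the nearest library over the range of the group. Chance gives about 1 in 20 for independent groups of normally distributed values. These groups are not independent, being 10 genes at 3 times of the same 7 names. The measure was also taken on RPKM without a log, which need not be normally distributed, and all 6 flagged values were the highest of their group. The 1 in 20 is therefore no reference for the 6. Of the 6, 5 were the library D3. Per2 in D3 was at 0.870, 0.643 and 0.565 RPKM at 0, 1 and 2 h, where the next library was at 0.422, 0.320 and 0.139 RPKM. Nr1d1 in D3 at 2 h was at 1.71 RPKM with the next at 0.453 RPKM, and Bhlhe40 in D3 at 2 h at 66.1 RPKM with the next at 25.1 RPKM. Nfil3 in r1 at 2 h was at 10.8 RPKM with the next, r2, at 5.44 RPKM. What sets these libraries apart was not tested.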

How the results depend on the processing

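Of 90 pairs of a tested gene and a comparison, 12 were called in the fits reported first and 30 in these or an alternative; none of the 12 changed sign under an alternative, and of the 60 never called 26 did. For MPH against DMSO at 0 h, 1 gene was called, and the count was 0 with a pseudocount of 0.1 and with no filter. It was 2 without the 1 h library of M4, 2 with all 7 DMSO names with or without the covariate, and 2 with libraries of the tested time only. Leaving out names gave 0 to 1. At 1 h and 2 h the count of 0 became 1 at each time without the 1 h library of M4, and leaving out names gave 0 to 1. The Nfil3 difference at 1 h was -0.18 without replicate M2, opposite in sign to the 0.67 with it; the set without M2 holds M3 and the discordant M4 library. Without replicate M4 it was 2.18.

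For LPS at 1 h under DMSO, 1 gene was called, 4 with the replicate block by name and 0 in D3 to D6 only; leaving out a name always gave 1. At 2 h, 4 were called, 6 with the block, 2 in D3 to D6 only, and 3 to 7 without 1 name; the 7 came without D3, when Nr1d2, Bhlhe40 and Clock were added (adjusted p = 0.0375, 0.0476 and 0.0460), and Nr1d2 was also added without D6 (adjusted p = 0.0357). From 1 h to 2 h, 4 were called, 6 with the block, 2 with no filter, 2 without the covariate, 1 in D3 to D6 only, and 1 to 5 without 1 name; Bhlhe41 was lost without r2 (adjusted p = 0.0530), and Nr1d1 and Nr1d2 were added without D3 and D6 (adjusted p = 0.00357 and 0.0347). Under MPH at 1 h, 0 were called, 1 (Per1) with a pseudocount of 1, 3 with the block, and 0 to 1 without 1 name (Per1 without M3, adjusted p = 0.0429, and Cry2 without D6, adjusted p = 0.0402). Under MPH at 2 h, 2 were called, 1 with no filter, 1 with median-of-ratios scaling, 5 with the block, and 1 to 2 without 1 name. For the differences of responses the count was 0 at both times, with the block too. A replicate block by number, which pairs D3 with M3 and D4 with M4, called 1, 0 and 0 genes for MPH against DMSO at 0, 1 and 2 h. The cause of these changes was not tested, except that sets such as D3 to D6 hold fewer libraries and the test without a filter more genes.

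Depth limits the low members most: Per2, Nr1d1 and Cry2 reached down to about 3.0, 3.9 and 8.9 reads in the shallowest library values, and changes of genes near 0.5 RPKM are understated by the pseudocount. With 3 MPH names against 4, small differences could not be told from the spread.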
